A study of Mus musculus with 12 samples.

Results

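The genes described here are those of the replication fork, the machinery that copies DNA in the S phase of the cell cycle: the replicative DNA polymerases, their clamp and clamp loader, and the proteins that drive and guard the fork. The list held 33 mouse genes chosen by name, and 32 of them had at least 1 array probe set that named the gene alone, out of 18193 genes named on the array. Chaf1a was the exception, and its expression was not analysed here. All 32 passed the filter on low values and were tested among 12305 genes.

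At a fork the helicase made of the MCM ring, Cdc45 and GINS unwinds the parental strands, and replication protein A coats the single strands that are exposed. Primase and polymerase alpha start each new strand, polymerase epsilon extends the leading strand, and polymerase delta extends the lagging strand in short Okazaki fragments that Fen1, Dna2 and DNA ligase join. Resting endocrine cells of the adult pituitary need little of this machinery, and transcription of many of its genes is known to rise as cells enter S phase under control of E2F factors.

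Transcripts were read by hybridization to Affymetrix whole-genome mouse arrays, which carry sets of short oligonucleotides for each gene. The tissue was untreated pituitary of normal mice and of mice with the POMC gene (pro-opiomelanocortin, the precursor of ACTH and α-MSH) knocked out. The labels put 8 arrays in the heterozygous knockout group, 2 in the homozygous knockout group and 2 in the normal pituitary group, and they state neither age, sex nor strain; the methods describe the knockout tissue as spontaneous pituitary tumor. The tumor arrays fell in 5 pairs of adjacent numbers that were nearly identical (correlation 0.997 to 0.998 across probe sets, against 0.986 to 0.993 for heterozygous arrays of different pairs), so each pair was averaged and counted as 1 sample. This left 4 heterozygous tumors (pairs 1-2, 3-4, 5-6 and 7-8), 1 homozygous tumor and 2 normal samples, and the fit takes the single homozygous tumor to vary like the rest. The methods speak of pooled normal pituitary, and whether the 2 normal arrays hold pools was not settled here. The series text counts every array as a mouse, the sample labels name no animals, and whether the 2 arrays of a pair come from 1 animal was not settled here. P-values therefore rest on the spread among the 4 heterozygous tumors and between the 2 normal samples, which may be partly technical. The single homozygous tumor adds nothing to that spread.

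Over the 32 genes, the 2 arrays of a tumor pair differed by a median of 0.05 on the log2 scale and the 2 normal samples by a median of 0.22. The targeted gene, Pomc, followed the label of the homozygous tumor, where its log2 signal was 7.18. The signal of Pomc was 15.15 to 15.30 in heterozygous tumors and 15.08 and 15.11 in normal pituitary. All heterozygous tumors thus lay above both normal samples, so Pomc gives no check of the heterozygous label. Heterozygous tumors and normal samples below are listed in the order of their numbers, and all signals and differences are on the log2 scale. A gene was called higher or lower when limma's adjusted p was under 0.05 and the fold change was over 2.

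Short windows around the start of transcription are shown for 5 of the genes before their values, because E2F factors bind the promoters of many replication genes. They are Pole2 and Clspn, with the largest measured differences in heterozygous tumors, Rfc3, the gene with 2 matches, Pold3, which had a match and was not called, and Pole3, which had none and was not called. Capitals mark matches to TTTCCCGC, TTTGGCGC, TTTCGCGC or TTTGCCGC on either strand. The sequences are from RefSeq, build GRCm38.p6, run 5′ to 3′ on the strand of the gene and span 250 bases before to 50 bases after the listed start: Pole2 at chr12:69228141-69228440 (minus strand), Clspn at chr4:126556730-126557029 (plus strand), Rfc3 at chr5:151651159-151651458 (minus strand), Pold3 at chr7:100121453-100121752 (minus strand) and Pole3 at chr4:62524965-62525264 (minus strand).
Pole2: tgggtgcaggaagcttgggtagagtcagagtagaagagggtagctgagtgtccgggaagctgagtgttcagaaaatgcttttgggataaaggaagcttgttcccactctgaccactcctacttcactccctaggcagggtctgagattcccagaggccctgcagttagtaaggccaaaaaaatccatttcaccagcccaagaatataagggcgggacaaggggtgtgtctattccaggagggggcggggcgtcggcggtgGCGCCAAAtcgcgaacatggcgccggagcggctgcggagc
Clspn: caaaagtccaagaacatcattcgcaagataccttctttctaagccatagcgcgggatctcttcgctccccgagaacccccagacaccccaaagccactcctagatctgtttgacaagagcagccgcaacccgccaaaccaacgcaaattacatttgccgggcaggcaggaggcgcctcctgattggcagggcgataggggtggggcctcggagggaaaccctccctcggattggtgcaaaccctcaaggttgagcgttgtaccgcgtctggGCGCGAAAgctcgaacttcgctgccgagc
Rfc3: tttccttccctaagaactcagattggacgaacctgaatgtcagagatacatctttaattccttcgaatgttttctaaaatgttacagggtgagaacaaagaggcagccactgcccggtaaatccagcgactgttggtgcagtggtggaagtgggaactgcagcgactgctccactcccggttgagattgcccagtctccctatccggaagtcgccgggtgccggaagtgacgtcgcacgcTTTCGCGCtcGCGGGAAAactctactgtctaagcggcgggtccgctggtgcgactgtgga
Pold3: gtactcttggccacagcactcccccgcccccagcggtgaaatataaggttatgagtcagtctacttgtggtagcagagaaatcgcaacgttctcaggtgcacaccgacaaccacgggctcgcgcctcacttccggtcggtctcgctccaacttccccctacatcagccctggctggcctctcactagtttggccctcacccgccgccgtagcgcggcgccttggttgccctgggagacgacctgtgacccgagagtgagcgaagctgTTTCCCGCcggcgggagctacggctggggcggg
Pole3: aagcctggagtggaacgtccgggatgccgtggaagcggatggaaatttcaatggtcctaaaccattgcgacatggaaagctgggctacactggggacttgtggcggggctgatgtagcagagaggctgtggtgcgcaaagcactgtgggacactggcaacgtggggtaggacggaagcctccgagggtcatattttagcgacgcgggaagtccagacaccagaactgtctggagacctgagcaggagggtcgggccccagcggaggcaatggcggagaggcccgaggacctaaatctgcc

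Such a window was given for 26 of the 33 listed genes, Chaf1a among them, and 8 of these (30.8%) held a match: Pola1, Pold1, Pold3, Pole2, Rfc3, Lig1, Gins3 and Clspn. The same letters stood in the windows of 4.71% of 9923 tested genes and in 2.26% of all 32851 windows of this length. No match shared bases with a match to the other motifs searched. Among genes with a window, 7 of the 18 called higher in heterozygous tumors held a match and 1 of the 7 not called did. The CCAAT box, by its letters CCAAT on either strand, stood in the windows of 50% of the listed genes and 42.8% of tested genes. The GC box GGGCGG stood in 65.4% and 69.3%, and the cell cycle genes homology region, searched as TTTGAA or TTCGAA, in 19.2% and 15.8%. A match describes the letters of the window and is not evidence that a factor binds there.

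In heterozygous tumors, 23 of the 32 genes were higher than in normal pituitary and 0 were lower. Of all genes tested, 5.57% were called higher and 4.5% lower. The median difference was 1.63 over the 32 genes and 0.00 over all genes, of which 50.1% lay above 0, against 31 of the 32. At an unadjusted p under 0.05 in limma, 31 were higher and 0 lower, against 20% of all genes higher. No other setting or test made a call downwards. All 4 heterozygous tumors lay above both normal samples for 31 of the 32 genes, against 25.4% of all genes. In a bulk sample, more cells that carry a transcript and more transcript per cell cannot be told apart.

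**Figure D1:**
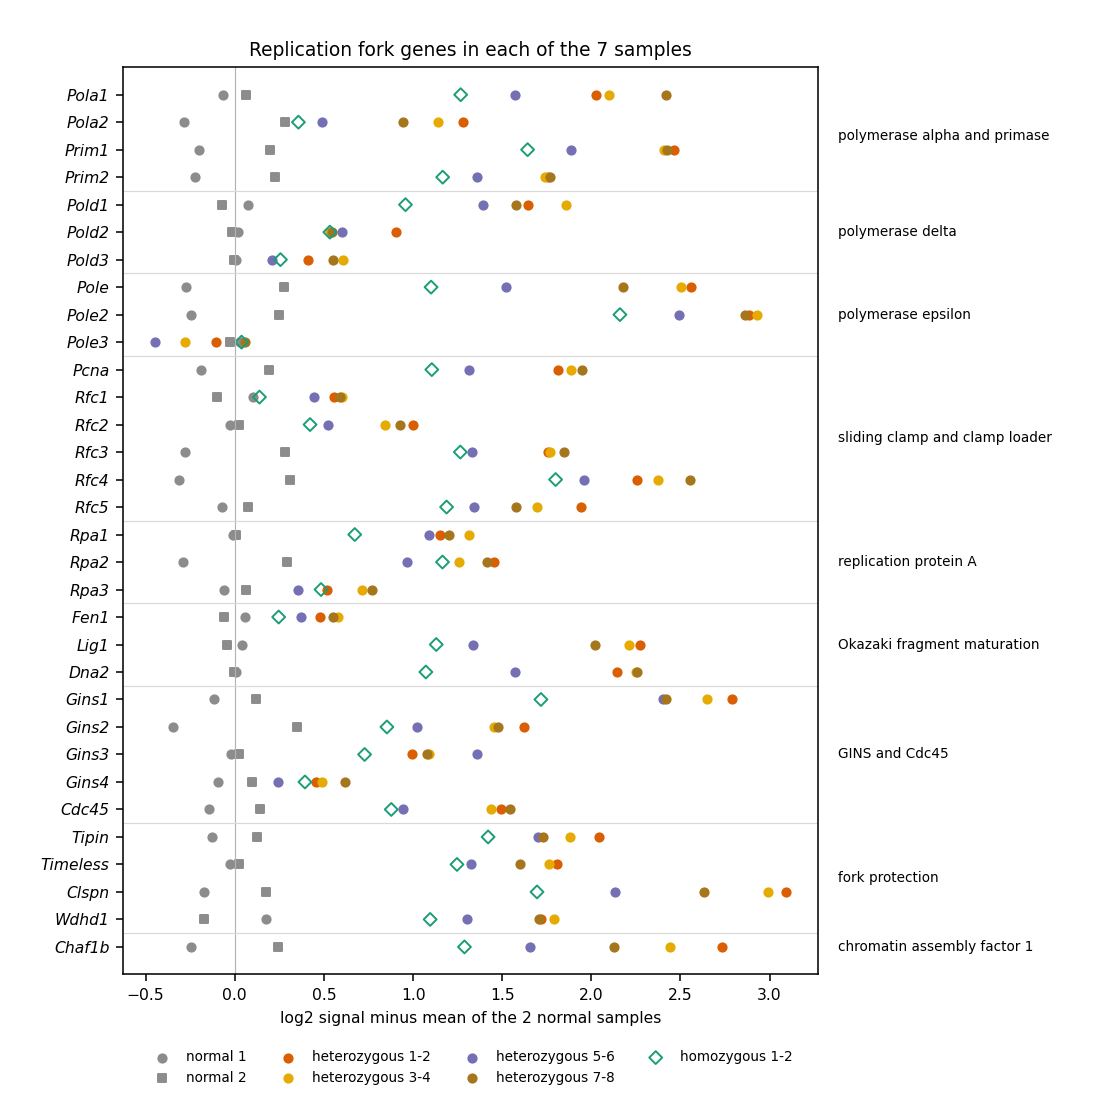
Log2 signal of each of the 32 replication fork genes in each of the 7 samples, less the mean of the 2 normal samples, with genes in rows by role. Circles of 4 colors are the heterozygous tumors, the diamond is the homozygous tumor, and the gray circle and square are the normal samples. The homozygous diamond lies between the normal samples and the 4 heterozygous tumors for 26 genes, and heterozygous tumor 5-6 is the lowest of the 4 for 30.

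Polymerase alpha and primase lay high in tumors, with 3 of 4 genes called. Prim1, which encodes the catalytic subunit of primase, had signals of 7.67 and 8.07 in normal pituitary, 10.33, 10.28, 9.75 and 10.29 in heterozygous tumors and 9.51 in the homozygous tumor. Every tumor lay above both normal samples. The rise was 4.91-fold in heterozygous tumors (2.30, standard error 0.20, adjusted p = 0.000584) and 3.12-fold in the homozygous tumor (1.64, standard error 0.29, adjusted p = 0.0346). Pola1, the catalytic subunit of polymerase alpha, rose by 2.03 (standard error 0.22, adjusted p = 0.00117) over normal pituitary, and Prim2, the large subunit of primase, by 1.65 (standard error 0.18, adjusted p = 0.00117). Their differences in the homozygous tumor, 1.27 for Pola1 (adjusted p = 0.0857) and 1.17 for Prim2 (adjusted p = 0.0612), passed the fold change and not the adjusted p. Pola2, the accessory subunit of polymerase alpha, had the smallest difference of the 4. Its signals were 6.65 and 7.22 in normal pituitary, 8.21, 8.07, 7.42 and 7.87 in heterozygous tumors and 7.29 in the homozygous tumor. Heterozygous tumor 5-6 stood close above the higher normal sample, and the difference of 0.96 (adjusted p = 0.0321, 1.95-fold) fell short of the fold change.

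The subunits of polymerase delta differed among themselves. The catalytic subunit Pold1 had signals of 6.75 and 6.60 in normal pituitary, 8.32, 8.53, 8.07 and 8.25 in heterozygous tumors and 7.63 in the homozygous tumor, so the 3 groups did not overlap. Pold1 rose by 1.62 in heterozygous tumors (standard error 0.15, adjusted p = 0.000663, 3.07-fold), and its difference of 0.96 in the homozygous tumor (adjusted p = 0.0628) was not called. The accessory subunits were not called in either genotype. For Pold3, which helps polymerase delta hold its clamp, the signals were 8.05 and 8.04 in normal pituitary, 8.45, 8.65, 8.25 and 8.59 in heterozygous tumors and 8.30 in the homozygous tumor. All tumors lay above the normal samples by a small step, with a difference of 0.44 in heterozygous tumors (adjusted p = 0.0581) and 0.26 in the homozygous tumor (adjusted p = 0.549). Pold2, the subunit that bridges Pold1 and Pold3, stood at 0.65 (adjusted p = 0.0159, 1.57-fold) and 0.53 (adjusted p = 0.209).

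Polymerase epsilon held both ends of the range of measured differences, with Pole2, its second subunit, at the upper end and Clspn next to it. Their order is not settled, since both had low signals in normal pituitary. Signals of Pole2 were 5.07 and 5.56 in normal pituitary, 8.20, 8.25, 7.81 and 8.18 in heterozygous tumors and 7.48 in the homozygous tumor, which separates the 3 groups. Pole2 rose by 2.79 in heterozygous tumors (standard error 0.19, adjusted p = 0.00029, 6.93-fold) and by 2.16 in the homozygous tumor (standard error 0.26, adjusted p = 0.0131, 4.47-fold). Pole3, a small histone-fold subunit that is also found in a chromatin remodeling complex, was the only gene of the 32 with a heterozygous difference below 0. Its signals were 8.40 and 8.34 in normal pituitary, 8.27, 8.10, 7.92 and 8.43 in heterozygous tumors and 8.41 in the homozygous tumor. The groups overlapped, with differences of -0.19 (95% interval -0.56 to 0.17) and 0.04 (95% interval -0.48 to 0.55). Pole, the catalytic subunit, rose by 2.19 in heterozygous tumors (standard error 0.31, adjusted p = 0.00311, 4.56-fold) and had a difference of 1.10 in the homozygous tumor (adjusted p = 0.241). The mean normal signals of Pole and Pole2, like those of Clspn and Chaf1b, lay under the median of all values on the arrays (5.74). Array signals there tend to understate a fold change. Both normal samples lay under that median for these 4 genes, so they passed the filter on low values through tumor arrays alone. Without that filter, 23 of the 32 genes were again called higher in heterozygous tumors.

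The sliding clamp and 3 of the 5 clamp loader genes rose. Pcna, the ring that tethers polymerases to DNA, had signals of 10.94 and 11.32 in normal pituitary, 12.94, 13.02, 12.44 and 13.08 in heterozygous tumors and 12.23 in the homozygous tumor. The 3 groups did not overlap, with a rise of 1.74 in heterozygous tumors (standard error 0.21, adjusted p = 0.00169, 3.34-fold) and a difference of 1.11 in the homozygous tumor (adjusted p = 0.102). Rfc4 changed most among the loader subunits, which open the ring and place it on DNA. Its signals were 6.43 and 7.05 in normal pituitary, 9.0, 9.12, 8.70 and 9.30 in heterozygous tumors and 8.54 in the homozygous tumor, and again the homozygous tumor lay between the other groups. Rfc4 rose by 2.29 in heterozygous tumors (standard error 0.22, adjusted p = 0.000771, 4.88-fold) and by 1.80 in the homozygous tumor (standard error 0.31, adjusted p = 0.0345, 3.48-fold). Rfc3 and Rfc5, further small subunits, rose by 1.68 (adjusted p = 0.00189) and 1.64 (adjusted p = 0.00107) in heterozygous tumors. Rfc1, the large subunit, showed the smallest difference of the loader. Its signals were 8.42 and 8.22 in normal pituitary, 8.88, 8.92, 8.76 and 8.91 in heterozygous tumors and 8.46 in the homozygous tumor. Heterozygous tumors lay above the normal samples by a difference of 0.55 (adjusted p = 0.0152, 1.46-fold) that fell short of the fold change. The homozygous tumor stood just above the higher normal sample. Further tested probe sets of Rfc1 gave 0.27 (limma's adjusted p = 0.33) and 0.31 (adjusted p = 0.179) in heterozygous tumors. On the former, tumor 5-6 lay below both normal samples. Rfc2 was not called either, at 0.82 (adjusted p = 0.00918, 1.77-fold).

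Replication protein A is a complex of 3 subunits, of which 2 rose in heterozygous tumors. Rpa2, the middle subunit, had signals of 7.56 and 8.15 in normal pituitary, 9.30, 9.11, 8.82 and 9.27 in heterozygous tumors and 9.02 in the homozygous tumor. Here the homozygous tumor lay within the heterozygous range, and the differences were 1.27 (standard error 0.21, adjusted p = 0.00543, 2.42-fold) and 1.17 (adjusted p = 0.0897). Rpa1, the large subunit, rose by 1.19 in heterozygous tumors (standard error 0.11, adjusted p = 0.000714, 2.28-fold). The small subunit Rpa3 had signals of 8.18 and 8.30 in normal pituitary, 8.75, 8.95, 8.60 and 9.01 in heterozygous tumors and 8.72 in the homozygous tumor. All tumors lay above the normal samples, and the difference of 0.59 (adjusted p = 0.0278) was under the fold change. Without normal sample 1, Rpa2 and Gins2 were no longer called in heterozygous tumors.

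Of the genes that mature Okazaki fragments, Dna2 and Lig1 rose in heterozygous tumors. Dna2, a nuclease and helicase that trims long flaps, had signals of 5.98 and 5.97 in normal pituitary, 8.12, 8.23, 7.55 and 8.23 in heterozygous tumors and 7.04 in the homozygous tumor. The groups were separate, with a rise of 2.06 in heterozygous tumors (standard error 0.21, adjusted p = 0.000885, 4.16-fold) and a difference of 1.07 in the homozygous tumor (adjusted p = 0.109). Lig1, which seals the fragments, rose by 1.96 (standard error 0.26, adjusted p = 0.00241, 3.89-fold), and heterozygous tumor 5-6 lay at 8.44 against 9.13 to 9.38 in the other 3. Fen1, the flap endonuclease, had signals of 10.58 and 10.47 in normal pituitary, 11.01, 11.11, 10.90 and 11.08 in heterozygous tumors and 10.77 in the homozygous tumor on its probe set of highest mean. The order of the groups was that of Dna2 and the step was small, at 0.50 (adjusted p = 0.0208, 1.41-fold) and 0.25 (adjusted p = 0.477). A further probe set of Fen1 read 7.63 and 7.79 in normal pituitary, 9.43, 9.38, 9.06 and 9.29 in heterozygous tumors and 8.71 in the homozygous tumor. On that probe set Fen1 was called in both genotypes, at 1.58 (adjusted p = 0.000573) and 1.0 (adjusted p = 0.0465), so the call for Fen1 depends on the probe set.

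GINS and Cdc45, the parts that turn the MCM ring into an active helicase, were called higher for 4 of 5 genes. Gins1 had signals of 5.96 and 6.19 in normal pituitary, 8.86, 8.73, 8.48 and 8.49 in heterozygous tumors and 7.79 in the homozygous tumor, with no overlap between groups. Gins1 rose by 2.57 in heterozygous tumors (standard error 0.15, adjusted p = 0.00026, 5.92-fold) and by 1.72 in the homozygous tumor (standard error 0.21, adjusted p = 0.0142, 3.29-fold). Gins2 rose by 1.40 (adjusted p = 0.00634), Gins3 by 1.13 (adjusted p = 0.00156) and Cdc45 by 1.36 (adjusted p = 0.00329) in heterozygous tumors. Gins3 ran against the usual order of the tumors, with its highest signal, 7.57, in heterozygous tumor 5-6 and 7.21 to 7.30 in the other 3. Gins4 had the smallest difference of the complex. Its signals were 8.69 and 8.88 in normal pituitary, 9.24, 9.27, 9.03 and 9.40 in heterozygous tumors and 9.18 in the homozygous tumor. The tumors lay above the normal samples, and the differences of 0.45 (adjusted p = 0.0535) and 0.39 (adjusted p = 0.343) were not called. The subunits of this 1 complex therefore had differences from 0.45 to 2.57, each read by its own probe set.

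All 4 genes of fork protection rose in heterozygous tumors, and 2 of them in the homozygous tumor. Clspn encodes claspin, which carries the stalled-fork signal to the kinase Chk1. It had signals of 4.52 and 4.88 in normal pituitary, 7.79, 7.69, 6.83 and 7.33 in heterozygous tumors and 6.39 in the homozygous tumor. The groups did not overlap, with a rise of 2.71 (standard error 0.27, adjusted p = 0.000885, 6.55-fold) and a difference of 1.70 in the homozygous tumor (adjusted p = 0.0698). Tipin and Timeless form a pair that travels with the fork. Signals of Tipin were 8.81 and 9.06 in normal pituitary, 10.98, 10.82, 10.64 and 10.66 in heterozygous tumors and 10.36 in the homozygous tumor. Those of Timeless were 6.19 and 6.24 in normal pituitary, 8.02, 7.97, 7.54 and 7.81 in heterozygous tumors and 7.46 in the homozygous tumor. For both genes the tumors were all above the normal samples and the homozygous tumor was the lowest of them. Against normal pituitary, Tipin rose 3.58-fold in heterozygous tumors (1.84, standard error 0.14, adjusted p = 0.000426) and 2.68-fold in the homozygous tumor (1.42, standard error 0.20, adjusted p = 0.0208). Timeless rose 3.08-fold (1.62, standard error 0.16, adjusted p = 0.000746) and 2.37-fold (1.25, standard error 0.22, adjusted p = 0.0361). Wdhd1, which links the helicase to polymerase alpha, rose by 1.63 in heterozygous tumors (adjusted p = 0.00117).

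Chromatin assembly factor 1 deposits histones behind the fork and was represented by Chaf1b. Its signals were 5.02 and 5.51 in normal pituitary, 7.99, 7.70, 6.92 and 7.39 in heterozygous tumors and 6.55 in the homozygous tumor. The spread among heterozygous tumors was wide, yet all lay above the other groups. Chaf1b rose by 2.24 in heterozygous tumors (standard error 0.29, adjusted p = 0.00244, 4.72-fold) and had a difference of 1.29 in the homozygous tumor (adjusted p = 0.164).

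Of the 9 genes not called in heterozygous tumors, 6 passed the adjusted p with a fold change under 2. These were Pola2, Pold2, Rfc1, Rfc2, Rpa3 and Fen1, and the others were Pold3, Pole3 and Gins4. With adjusted p alone, 29 of the 32 genes were higher, against 12.7% of all genes. The nearest to the fold threshold were Pola2 below it at 0.96 and Gins3 above it at 1.13.

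In the homozygous tumor 6 of the 32 genes were called higher, against 1.43% of all genes tested, and 0 were called lower, against 1.3%. They were Prim1, Pole2, Rfc4, Gins1, Tipin and Timeless, all of which were called in heterozygous tumors too, as were 1.18% of all genes in both genotypes. At an unadjusted p under 0.05 in limma, 24 were higher and 0 lower, against 9.03% of all genes higher. The homozygous tumor lay above both normal samples for all 32 genes, against 37.6% of all genes, and the median difference was 1.10 over the 32 genes and -0.03 over all genes. Of all genes, 46.7% had a difference above 0. A further 12 genes passed the fold change without passing the adjusted p, which makes 18 of 32 above 2-fold, against 3.71% of all genes. The count of calls rests on few samples. It was 0 without normal sample 1, 1 (Pole2) without normal sample 2, 3 without heterozygous tumor 3-4 and 14 without heterozygous tumor 5-6, and 17 with the 12 arrays as separate samples. Both tumor genotypes were set against the same 2 normal samples, so their differences are not independent.

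The 2 tumor genotypes were compared directly. Heterozygous tumors were above the homozygous tumor in mean signal for 31 of the 32 genes, against 55.7% of all genes, with a median difference of 0.49 against 0.03 over all genes. None of these differences was called by limma on the averaged pairs, where 0.0488% of all genes were called higher and 0.228% lower in heterozygous tumors. At an unadjusted p under 0.05, 15 of the 32 were higher and 0 lower, against 5.98% of all genes higher. With the 12 arrays as separate samples, Pole and Clspn were called, also by the methods' one-way test. The largest difference was that of Pole, 1.09 (95% interval 0.16 to 2.02, adjusted p = 0.447), followed by Clspn at 1.02 (95% interval 0.20 to 1.83, adjusted p = 0.42). Gins1 had the lowest adjusted p, 0.22, at a difference of 0.85 (95% interval 0.39 to 1.31). Pole3, at -0.23 (95% interval -0.70 to 0.24), was the only gene with a higher signal in the homozygous tumor. The homozygous tumor lay below every heterozygous tumor for 26 genes, against 26.9% of all genes. In the same 26 it lay above both normal samples, a position held by 9.72% of all genes.

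**Figure D2:**
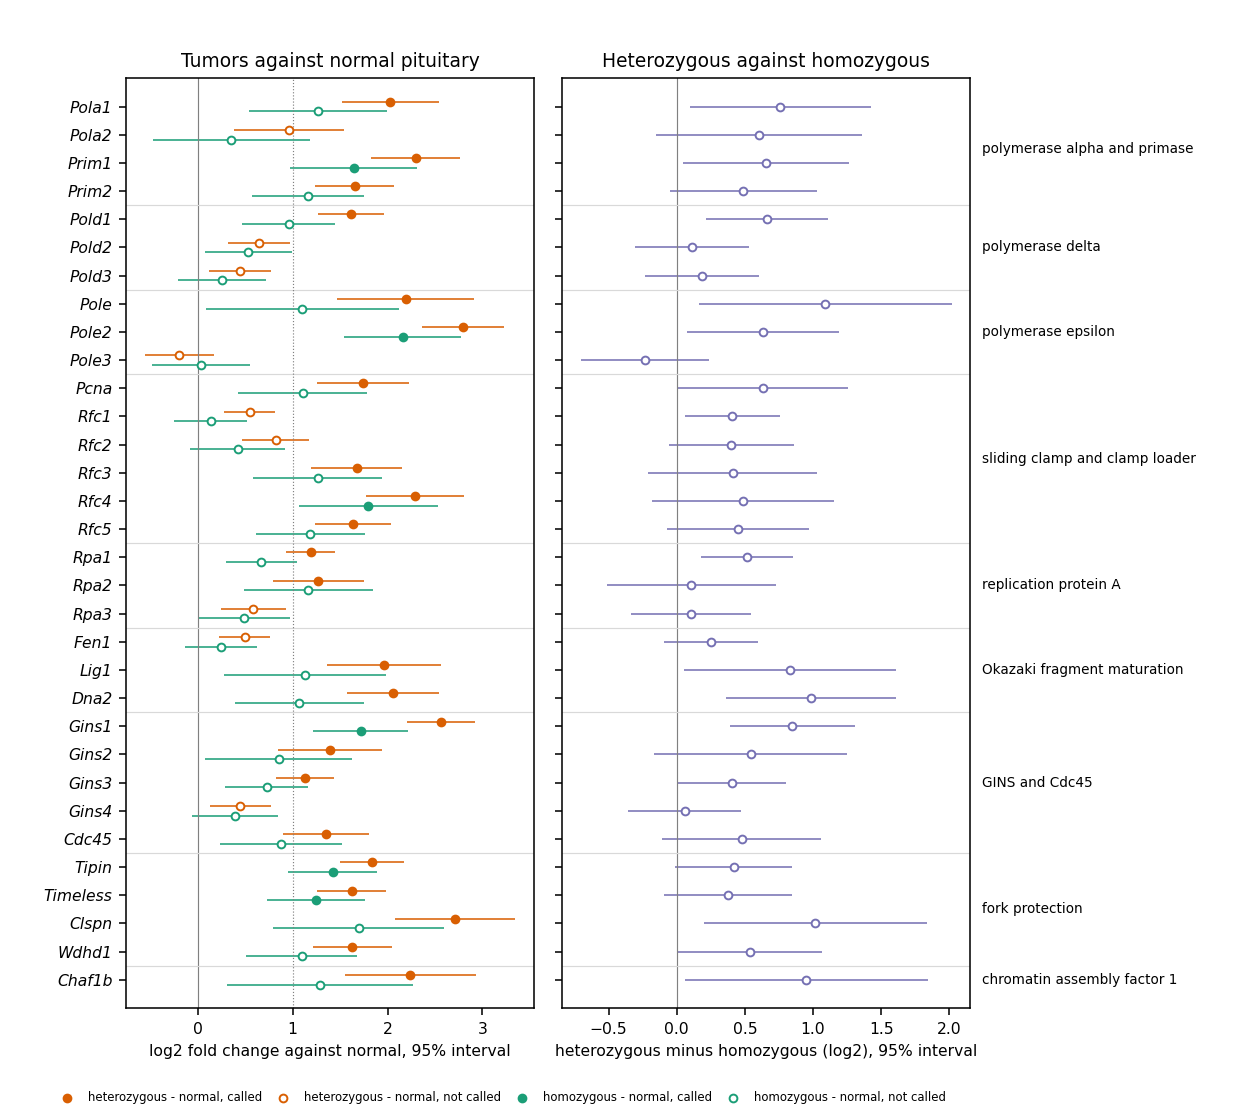
Differences in log2 signal with 95% intervals for the 32 replication fork genes. The left panel sets heterozygous tumors and the homozygous tumor against normal pituitary, with filled points for calls and a dotted line at a log2 difference of 1. The right panel sets heterozygous tumors against the homozygous tumor, where 15 intervals lie wholly above 0 and no gene was called.

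Among heterozygous tumors, pair 5-6 stood low. It had the lowest signal of the 4 for 30 of the 32 genes, against 26.9% of all genes, with Pold2 and Gins3 as the exceptions. The median rise over the normal mean was 1.74 in pair 1-2, 1.75 in pair 3-4, 1.33 in pair 5-6 and 1.59 in pair 7-8, and 1.10 in the homozygous tumor. Pair 5-6 lay below the mean of the other 3 by a median of -0.40 (range -0.89 to 0.30), against -0.01 over all genes. The standard deviation among the 4 tumors ran from 0.07 for Rfc1 to 0.48 for Pole, with a median of 0.22 against 0.16 over all genes.

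Markers of other cells were read in the same samples. Mki67, the antigen of cycling cells, stood at 7.09 and 7.35 in normal pituitary, 10.19, 10.16, 9.13 and 9.99 in heterozygous tumors and 9.2 in the homozygous tumor. Pair 5-6 was thus the lowest of the heterozygous tumors in Mki67 too, and in all 4 proliferation markers measured, whose mean level was 6.34 to 6.64 in normal pituitary, 8.43 to 9.37 in heterozygous tumors and 8.49 in the homozygous tumor. Macrophage markers were called higher in heterozygous tumors for 9 of 12 genes, with a mean level of 6.67 to 6.87 in normal pituitary, 8.11 to 8.81 in heterozygous tumors and 7.79 in the homozygous tumor, and pair 5-6 was the lowest for 0 of 12. Gonadotroph and thyrotroph markers were called lower in heterozygous tumors for 8 of 8 genes, with a mean level of 9.75 to 9.79 in normal pituitary, 5.32 to 6.72 in heterozygous tumors and 7.64 in the homozygous tumor. Xist, read only from cells with an inactive X chromosome, was 4.58 in pair 1-2 and 5.0 in pair 5-6 against 10.93 and 11.25 in the other heterozygous tumors, and 5.07 and 4.57 in normal pituitary against 11.20 in the homozygous tumor. With the low-Xist heterozygous tumors alone, 23 of the 32 genes were again called higher against normal. Both normal samples were low in Xist and the homozygous tumor was high. Xist level and genotype therefore cannot be told apart between them. With Xist as a covariate, the median difference of the 32 genes in the homozygous tumor was 0.81, against 1.10 without it. The part of cell composition in the differences of replication genes was not tested.

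Of the remaining markers fixed for pituitary and other cells, heterozygous tumors had 1 called higher (Pax7, a melanotroph factor) and 2 lower (Crhr1 and Neurod1) of 7 for melanotrophs and corticotrophs. For somatotrophs and lactotrophs 1 of 3 was lower (Ghrhr), for endothelium 1 of 5 (Tek) and for glia and posterior lobe 2 of 4 (Slc1a3 and Aqp4). For T and B cells 1 of 2 tested was higher (Ptprc, which all leukocytes carry). Of 6 housekeeping genes 0 were called in either genotype (at an unadjusted p under 0.05 in limma, 1 was higher in heterozygous tumors), with a median difference of 0.04 in heterozygous tumors.

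Most of the 32 genes were read more than once. The array held 62 probe sets naming 1 of them alone, and 55 passed the filter. The other 7, of Cdc45, Chaf1b, Gins1, Pola1, Pola2 and Pole2, were low in normal pituitary and tumors alike and were not tested. Mean signals in normal pituitary and heterozygous tumors were 5.15 and 5.03 for that of Cdc45, and 3.10 and 3.46 for that of Pole2. Tumor arrays alone can carry a low probe set past the filter, so the counts below favor probe sets that rise in tumors. In heterozygous tumors 36 of the 55 were called higher and 0 lower. By gene, 5.57% of all genes tested were called higher and 4.5% lower there, and the shares over all tested probe sets were not counted. Of the 23 further tested probe sets, 16 gave the heterozygous call of the probe set of highest mean. The heterozygous calls differed for 6 genes. Rfc2, like Fen1, was called on other probe sets, with signals on 1 of them of 6.66 and 6.64 in normal pituitary, 7.97, 8.39, 8.18 and 8.34 in heterozygous tumors and 8.45 in the homozygous tumor. There the homozygous tumor was the highest sample, unlike on the probe set of highest mean, and the differences were 1.57 (adjusted p = 0.000673) and 1.80 (adjusted p = 0.0107). On the remaining probe set of Rfc2 the homozygous tumor (6.45) lay below every heterozygous tumor (6.75 to 6.83), as on that of highest mean. Prim2, Pold1, Dna2 and Clspn each had a tested probe set that was not called in heterozygous tumors, at 0.15, 0.98, 0.77 and 0.48. On that of Clspn the homozygous tumor (5.31) lay between the normal samples (5.10 and 5.42). On that of Pold1 the homozygous tumor (7.34) lay above heterozygous tumor 5-6 (7.06). For Pole3 the 3 probe sets gave -0.19, 0.15 and -0.59 (adjusted p = 0.0109 for the last), and none was called. In the homozygous tumor, Rpa2 was called on its other probe set and not on that of highest mean, with a difference of 1.17 on each.

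**Figure D3:**
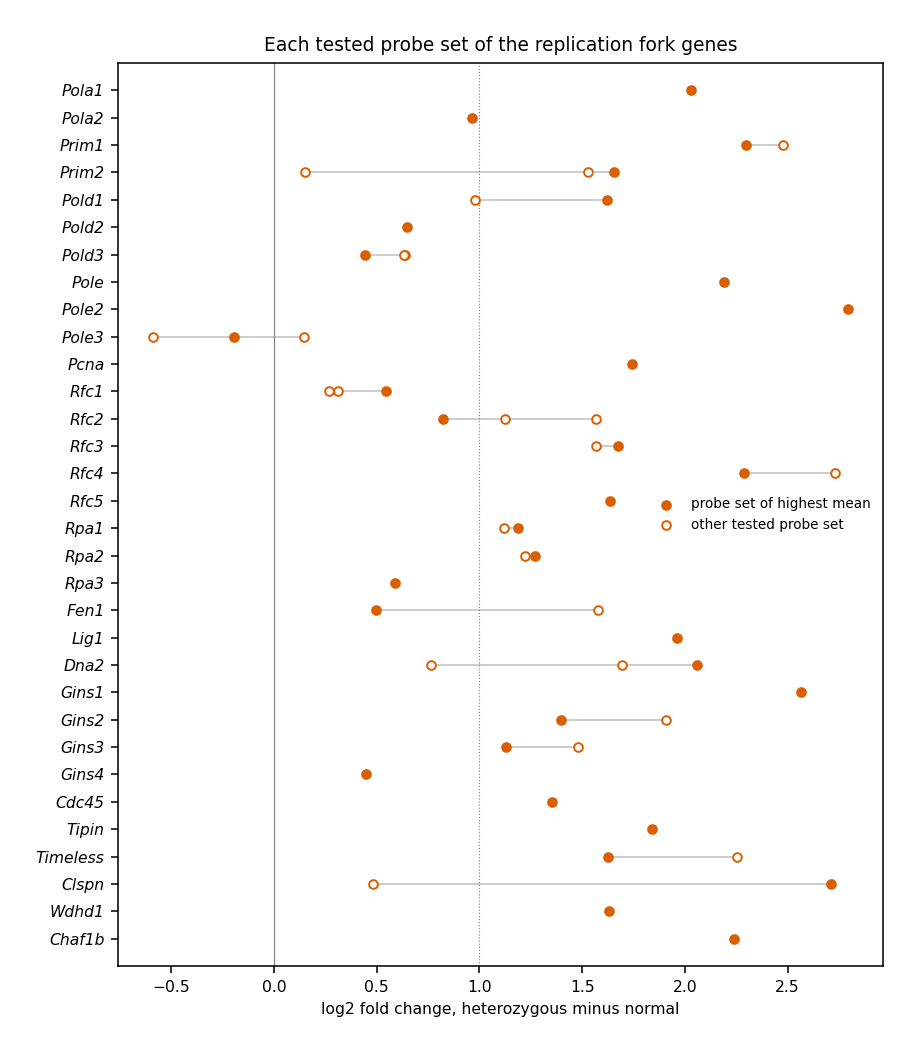
Log2 difference between heterozygous tumors and normal pituitary on every tested probe set of the 32 genes, 1 row a gene. Filled points are the probe set of highest mean, open points the others, and the dotted line marks a log2 difference of 1. The widest gaps are those of Clspn (2.71 and 0.48) and Prim2 (1.65 and 0.15).

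Genes that work beside the fork were read for comparison, from lists drawn up by function. Of 17 tested genes of the MCM helicase and origin licensing, heterozygous tumors had 11 called higher and the homozygous tumor 5, and 0 were called lower (at an unadjusted p under 0.05 in limma, 2 and 1 were lower). Among the 5 shared by both genotypes the changes were largest for Mcm6 (3.77 and 2.77), Cdt1 (3.30 and 2.39), Cdc6 (3.12 and 2.15) and Mcm5 (2.61 and 1.71), and Cdt1 and Cdc6 are the factors that load the MCM ring. Pair 5-6 was the lowest heterozygous tumor for 13 of the 17. Of 9 tested histone chaperones and chromatin factors of replication, heterozygous tumors had 6 called higher, and Hells, a chromatin remodeler, was called in the homozygous tumor as well (3.36 and 2.42). A list of other replisome genes had 4 of 19 higher in heterozygous tumors: Topbp1 at 1.67, Top2a at 2.45, Dscc1 at 2.83 and Atad5 at 1.17. Topbp1, a checkpoint activator, was the 1 called in the homozygous tumor. Signals in normal pituitary were 3.81 and 3.43 for Dscc1 and 4.08 and 4.70 for Cdc6, all under the median of all values (5.74). Both genes thus passed the filter on low values through tumor arrays alone, which limits how far their fold changes can be read.

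DNA polymerases that work in repair, in bypass of damage or in mitochondria had 0 of 13 genes called in either direction in either genotype. In heterozygous tumors this is near the shares over all genes, 5.57% called higher and 4.5% lower. At an unadjusted p under 0.05 in limma, heterozygous tumors had 3 higher and the homozygous tumor 1 higher and 1 lower. Their median difference in heterozygous tumors was 0.26, against 1.63 for the replication fork genes and 1.36 for the MCM and licensing list. Whether the lists differ was not tested.

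**Figure D4:**
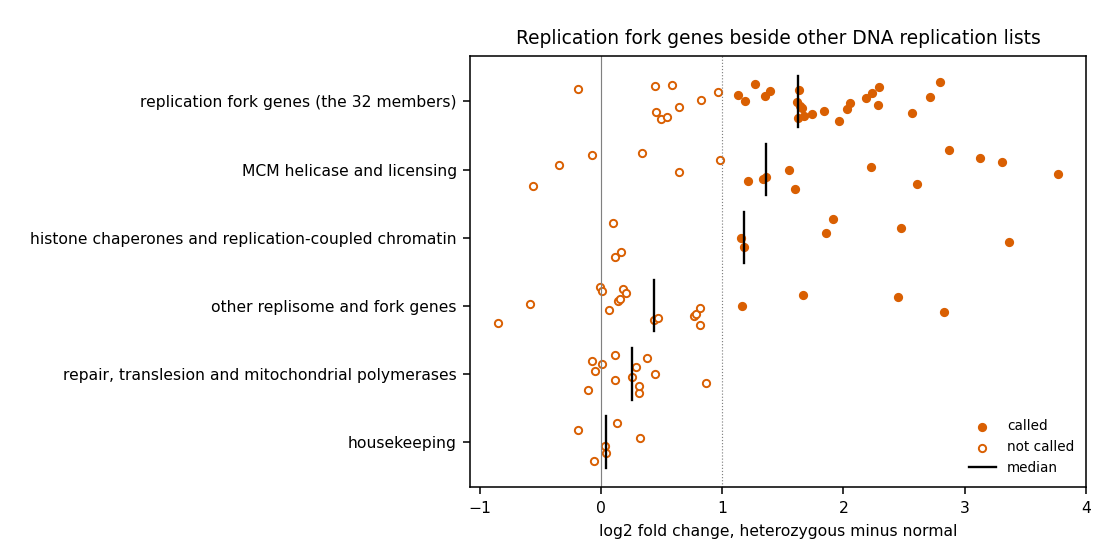
Log2 difference between heterozygous tumors and normal pituitary for each tested gene of 6 lists, 1 point a gene, filled where called, with a black bar at the median of the list. Points are spread vertically for legibility, and the dotted line marks a log2 difference of 1. The repair, translesion and mitochondrial polymerases and the housekeeping genes hold no filled point.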

How the data were processed

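RNA of pituitary tissue from POMC KO and normal mice was hybridized to 12 Affymetrix arrays. The authors deposited log2 values that they obtained with the Robust Multichip Average (RMA) method, and the submitters' processing notes name Affymetrix Expression Console and RMA without versions. The methods' filter on absolute calls was not applied here. In the platform annotation 34945 probe sets named 1 gene, 932 several and 9160 none, 64 more were controls, and no symbol needed updating. A probe set entered the tests when at least 2 arrays reached the overall median (5.74), 24486 did, and the probe set of highest mean stood for a gene.

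Adjacent-numbered tumor arrays were averaged, and limma 3.58.1 in R 4.3.3 fitted the 7 samples of 3 groups in 1 linear model with empirical Bayes moderation (4 residual degrees of freedom). P-values were adjusted over all tested probe sets by the Benjamini-Hochberg method. Calls followed the methods' limits of 0.05 on the adjusted p and 2 on the fold change. The pairs were inferred from the array values, against the count of mice in the series text. Tables were joined in Python 3.11.15 with pandas 2.3.3, and plots were drawn with matplotlib 3.10.9. The fit was tested on simulated data. The number of arrays limits the precision.

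The genes and the comparison and marker lists were chosen with earlier results of these data known. Full values are given for genes called in both tumor genotypes, for the largest and the smallest heterozygous change of each role, and for Pcna, which falls outside that rule. Rfc2 and Fen1 probe sets and the value ranges of Lig1 and Gins3 were also chosen after their values were seen. The RefSeq promoter table (GRCm38.p6) was matched by gene. Alternatives were the 12 arrays as separate samples, with and without a replicate block or the pair as a random effect, other normalizations, filters, probe set rules and priors, Xist as a covariate, the methods' one-way test and each sample left out.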

Additional observations from a re-analysis of the deposited data

Results flagged for a closer look

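In 5 of the 32 genes, heterozygous tumor 5-6 stood far below the other 3 heterozygous tumors relative to their range. Its log2 signal was 9.75 for Prim1, 8.11 for Prim2, 7.81 for Pole2, 7.55 for Dna2 and 6.99 for Cdc45. The other 3 tumors lay between 10.28 and 10.33 for Prim1, 8.49 and 8.52 for Prim2, 8.18 and 8.25 for Pole2, 8.12 and 8.23 for Dna2, and 7.48 and 7.58 for Cdc45. With normally spread values, chance alone marks about 1 in 20 genes in this way. The share of all tested genes so marked was not counted. The 32 genes share the same 4 tumors, so the 5 are not independent of each other. All 5 genes were called higher in heterozygous tumors with or without that tumor.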

How the results depend on the processing

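The count of 23 genes higher in heterozygous tumors ranged from 19 to 25 over all settings, and 21 to 24 when a sample was left out. The count in the homozygous tumor, 6, and the count called in both genotypes, which was equal to it in every setting, moved to 17 with the 12 arrays as separate samples, 15 with the pair as a random effect, 18 with the methods' one-way test and 2 with Xist as a covariate. With a sample left out, both counts ran from 0 to 14. Between the tumor genotypes, 2 genes were called with the arrays separate, 2 with the one-way test and 0 with any sample left out.

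With the replicate block on the 12 arrays, 18 genes were called in the homozygous tumor and in both genotypes, 6 between the genotypes and 23 in heterozygous tumors, where Pola2 was gained and Gins3 lost. Deviations of arrays numbered 1 from the mean of arrays 1 and 2 correlated by 0.033, -0.010 and 0.005 between groups. In the tumor groups those arrays form a near-identical pair, so these values cannot show whether the array numbers pair the samples. Treating near-identical arrays as separate samples adds degrees of freedom and, if the pairs are repeats, no tumors. The median differences kept their sign, over ranges of 1.29 to 1.74 in heterozygous tumors, 0.81 to 1.14 in the homozygous tumor and 0.44 to 0.62 between genotypes. They moved by more than the SD of the median between heterozygous tumors (0.196) on the probe set of smallest change, to 1.29 in heterozygous tumors and 0.87 in the homozygous tumor, and with Xist as a covariate, to 0.81 in the homozygous tumor.

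None of the values that changed sign was called in either fit. Pole3 in the homozygous tumor went to -0.043 with housekeeping centring, -0.048 with the mean of probe sets and -0.13 with Xist as a covariate, and in heterozygous tumors to 0.15 on the probe set of smallest change. On that probe set Prim2 and Rfc1 in the homozygous tumor went to -0.22 and -0.068. With Xist as a covariate Pold3 in the homozygous tumor went to -0.0059 and Pold2 between genotypes to -0.00096. With the low-Xist heterozygous tumors alone, a setting chosen after seeing the data, Rpa3 and Gins4 between genotypes went to -0.048 and -0.045. The cause of these changes was not tested. Signals under the array median, as for Pole, Pole2, Clspn and Chaf1b in normal pituitary, limit how far their fold changes can be read.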

Other observations

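The origin recognition complex, which marks where replication starts, did not move as a unit. Orc6 stood 0.98 above normal pituitary in heterozygous tumors (limma's adjusted p = 0.00368, 1.98-fold), just under the fold change. Orc2 stood at 0.33 (adjusted p = 0.139), Orc3 at -0.07 (adjusted p = 0.759), Orc4 at -0.56 (adjusted p = 0.0245) and Orc5 at -0.35 (adjusted p = 0.115), and none was called. Orc1 did not pass the filter on low values. Among the repair and mitochondrial polymerases the largest value was that of Polg2, the accessory subunit of the mitochondrial polymerase, at 0.87 (adjusted p = 0.00201), while its catalytic partner Polg stood at -0.11 (adjusted p = 0.548).

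Top1, the main relaxing topoisomerase of both replication and transcription, stood at -0.85 in heterozygous tumors (adjusted p = 0.00668) and -0.82 in the homozygous tumor (adjusted p = 0.0882), neither past the fold change. Its signals were 11.21 and 10.90 in normal pituitary, at most 10.30 in heterozygous tumors and 10.23 in the homozygous tumor, so all tumors lay below both normal samples. Top2a, the topoisomerase of dividing cells, rose by 2.45 in heterozygous tumors, and Top2b, its counterpart in resting cells, stood at -0.01. Donson, a fork stability factor, had 7.57 and 7.70 in normal pituitary, 8.55, 8.56, 8.17 and 8.34 in heterozygous tumors and 7.57 in the homozygous tumor. The homozygous tumor thus lay at the level of normal pituitary for Donson.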
